A study of Mus musculus with 18 samples.

Results

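Naive and memory T cell genes are described here as a set of 7 named genes: Tcf7, Lef1, Ccr7, Il7r, S1pr1, Klf2 and Satb1. They were taken by symbol from a table of 21015 genes, and all 7 were found and were among the 16125 genes that passed the filter on low counts. RNA was sequenced from 18 bulk tumours of MC38-OVA, a mouse colon carcinoma line that carries the model antigen ovalbumin, grown in mice of 10 weeks per the labels. The 6 groups of 3 libraries were KO-Clonidine, KO-Guanabenz, KO-Control, WT-Clonidine, WT-Guanabenz and WT-Control. KO hosts lacked Adra2a, the gene of the alpha2A-adrenergic receptor (labelled ADRA2A-/-), and WT hosts were wild type. Clonidine and guanabenz, both agonists of alpha2-adrenergic receptors, were injected daily into the peritoneal cavity and controls received PBS, with collection 7 days after treatment and no doses in the labels. The implanted cells carry their own genome, so the receptor was missing from host cells alone, and the labels do not give the host strain, the disrupted exon or the animal behind each library. For KO-Guanabenz the sample titles name guanabenz while the treatment field reads untreated; the titles were followed, and results that use this group rest on them.

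T cells that have not yet met antigen, and memory cells derived from them, are kept in a resting, long-lived and recirculating state. Tcf7 and Lef1 encode the HMG-box transcription factors TCF-1 and LEF-1, which can partner with beta-catenin and which hold the naive, memory and stem-like programmes. Satb1 encodes a chromatin organiser of developing T cells. Klf2 encodes a transcription factor of quiescence that switches on S1pr1, the sphingosine-1-phosphate receptor by which T cells leave lymphoid organs. Ccr7 encodes the receptor for the chemokines CCL19 and CCL21 that guides cells into lymph nodes, and Il7r the alpha chain of the receptor for the survival cytokine IL-7. None of these genes belongs to T cells alone: mature dendritic cells also use CCR7, innate lymphoid cells IL7R, and endothelial cells S1PR1 and KLF2.

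Library totals ran from 54.7 to 491.1 in units of 1e6 counts, with a median of 92.4. Adra2a was scarce, at 0.0917 to 0.293 CPM (counts per 1e6 counts, after scaling between libraries) in the 9 KO libraries and 0.286 to 0.589 CPM in the 9 WT libraries. Y-linked transcripts averaged above 1 CPM in 0 of 3 KO-Clonidine libraries, in 3 of 3 WT-Control libraries, and in 2 of 3 in each of the other groups. In GRCm38 coordinates of the RefSeq annotation, Tcf7 lies at chr11:52246527-52283383, Lef1 at chr3:131110297-131224357, Satb1 at chr17:51736187-51833290 and Klf2 at chr8:72319062-72321654. The receptor genes lie at chr11:99144199-99155077 (Ccr7), chr15:9506159-9529941 (Il7r) and chr3:115710433-115715055 (S1pr1). Tcf7 overlaps the annotated gene Skp1 by 332 bases, and since the use of strand is not given, reads from that stretch may be shared between them. Counts behind the 7 genes ran from 110 for Il7r to 19698 for Klf2 in a library, so the spread between libraries, more than counting error, limits what follows.

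The label was first checked against the level of the genes, compared per length of transcript. The median over 18 libraries was 21.8 CPM per kb for Klf2, 10.5 for Tcf7, 10.2 for Lef1 and 9.67 for S1pr1. It was 1.78 CPM per kb for Ccr7, 1.69 for Il7r and 1.12 for Satb1. Cd3e, a chain of the T cell receptor complex, had a median of 3.00 CPM per kb. By the longest transcript instead of the mean length, Cd3e had a median of 1.45 CPM per kb, below the 1.78 of Ccr7. Il7r and Satb1, at 1.07 and 0.572 by that length, stayed below Cd3e. Klf2, Tcf7, Lef1 and S1pr1 exceeded Cd3e per length in every library when the mean length of a gene's transcripts was used, the ratio of Tcf7 to Cd3e running from 1.96 to 6.96 and that of Lef1 to Cd3e from 1.31 to 7.25. The endothelial gene Cdh5 stood at 26.7 CPM per kb and the epithelial gene Epcam at 0.876. Which cells the transcripts came from cannot be told apart in bulk RNA, and neither can fewer cells of a type and less RNA per cell.

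Next the genes were set against marker levels across the 18 libraries, as the mean log2 CPM of 12 T cell, 8 B cell, 8 mature dendritic cell and 12 endothelial genes. For the T cell markers, Lef1 ran the opposite way (Pearson r = -0.65, permutation p = 0.0036, adjusted p = 0.025; Spearman rho = -0.66, permutation p = 0.0036, adjusted p = 0.034). Without WT-Clonidine 1 and WT-Guanabenz 1, the libraries farthest from the median T cell level, r was -0.62, and within groups it was -0.59. Lef1 ran the same way against the mature dendritic cell markers (r = -0.60, rho = -0.63, permutation p = 0.0093 and 0.0066, adjusted p = 0.052 and 0.046). That r was -0.47 without KO-Clonidine 3 and WT-Clonidine 1, and -0.83 within groups. With endothelial markers Lef1 had r = -0.49 and rho = -0.51 (permutation p = 0.039 and 0.033, adjusted p = 0.14 and 0.12), -0.53 without WT-Guanabenz 1 and WT-Clonidine 1 and -0.70 within groups, and with B cell markers r = -0.21. Tcf7 had r = 0.31 with the T cell markers (rho = 0.41, permutation p = 0.22 and 0.092), and within groups r = -0.17. For Il7r, S1pr1 and Satb1 r with the T cell markers was 0.17, 0.14 and -0.14, and for Klf2 0.46 (permutation p = 0.5, 0.58, 0.59 and 0.057). Of the 7 genes, Ccr7 and Klf2 were the ones with r above 0.4 for T cell markers, and the set is called below by its gene names rather than by a cell type.

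Ccr7 followed the mature dendritic cell markers closely, with r = 0.95 and rho = 0.87 (permutation p = 1e-05, the smallest the permutations can give, and 2e-05; adjusted p = 0.00028 and 0.00056). Without the libraries farthest from the median of those markers, KO-Clonidine 3 and WT-Clonidine 1, r was 0.92, and within groups it was 0.93. With the T cell markers Ccr7 had r = 0.57 (rho = 0.55, permutation p = 0.013 and 0.02, adjusted p = 0.06 and 0.11), which was 0.34 without WT-Clonidine 1 and WT-Guanabenz 1. With endothelial markers its r was 0.70 and rho 0.76 (permutation p = 0.00071 and 0.00031, adjusted p = 0.0099 and 0.0043), and r was 0.58 without WT-Guanabenz 1 and WT-Clonidine 1 and 0.61 within groups. Klf2 had r = 0.70 with B cell markers (rho = 0.50, permutation p = 0.0013 and 0.035, adjusted p = 0.012 and 0.12), but r = 0.40 without WT-Clonidine 3 and WT-Guanabenz 1, so that relation rests largely on these libraries. S1pr1 had r = 0.52 with endothelial markers (rho = 0.51, permutation p = 0.026 and 0.031, adjusted p = 0.1 and 0.12), 0.53 without WT-Guanabenz 1 and WT-Clonidine 1. In all 28 relations were computed and the adjustment covers them; 4 passed by r and 3 of these by both measures, and the points share library scaling and group.

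**Figure D1:**
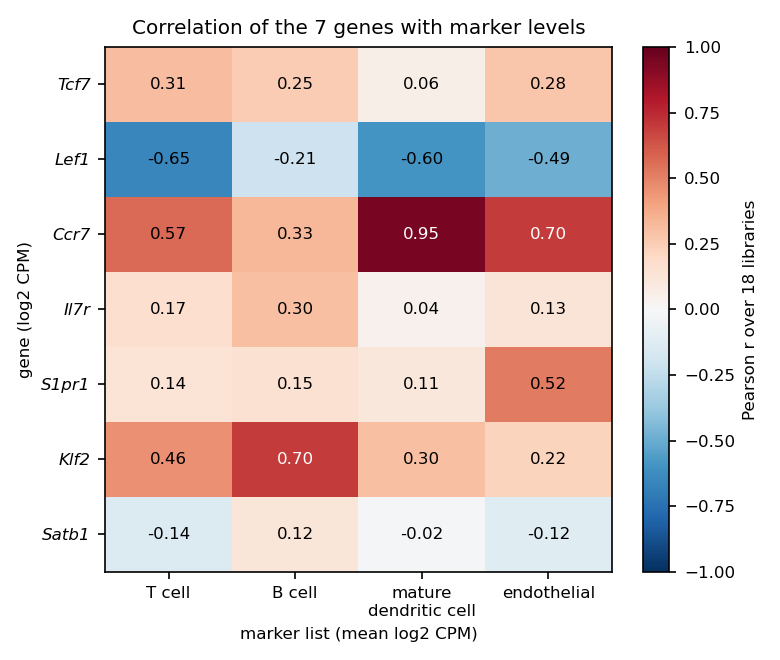
Heat map of Pearson r over 18 libraries between each of the 7 genes (rows, log2 CPM) and the mean log2 CPM of 4 marker lists (columns); red is positive and blue negative. The highest value is Ccr7 with mature dendritic cell markers (0.95) and the lowest is Lef1 with T cell markers (-0.65).

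Genes with the pattern most like each member were taken by Pearson r of log2 CPM over the 18 libraries, as a description. For Ccr7 they were Ccl22 (r = 0.95), a chemokine of mature dendritic cells and macrophages, Foxp3 (0.92), the factor of regulatory T cells, and Tek (0.91), an endothelial receptor. For Lef1 they were Cep44, Rbm34 and Eif4ebp1 (0.87, 0.87 and 0.86), the last an inhibitor of translation initiation. For Tcf7 they were Gm15093, Atad1 and Cav2 (0.82, 0.82 and 0.81), and for S1pr1 Adamts9, Tmem45a and the endothelial gene Ecscr (0.79, 0.78 and 0.76). Il7r was closest to Hcar2, Ccdc24 and H2-Q10 (0.86, 0.85 and 0.84), Klf2 to Ap5z1, Letm2 and Flt3l (0.82, 0.74 and 0.73) and Satb1 to Trim46, Tfrc and Pigx (0.75, 0.72 and 0.72). No T cell receptor gene was among these 21 places.

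The members did not vary as one block. Over the 21 pairs of members r ran from -0.50 for Lef1 with Ccr7 to 0.67 for Tcf7 with S1pr1, with a median of 0.13. The paralogues Tcf7 and Lef1 had r = -0.41 (rho = -0.55). Lef1 and Satb1 had r = 0.51 (rho = 0.53), and within groups 0.71.

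**Figure D2:**
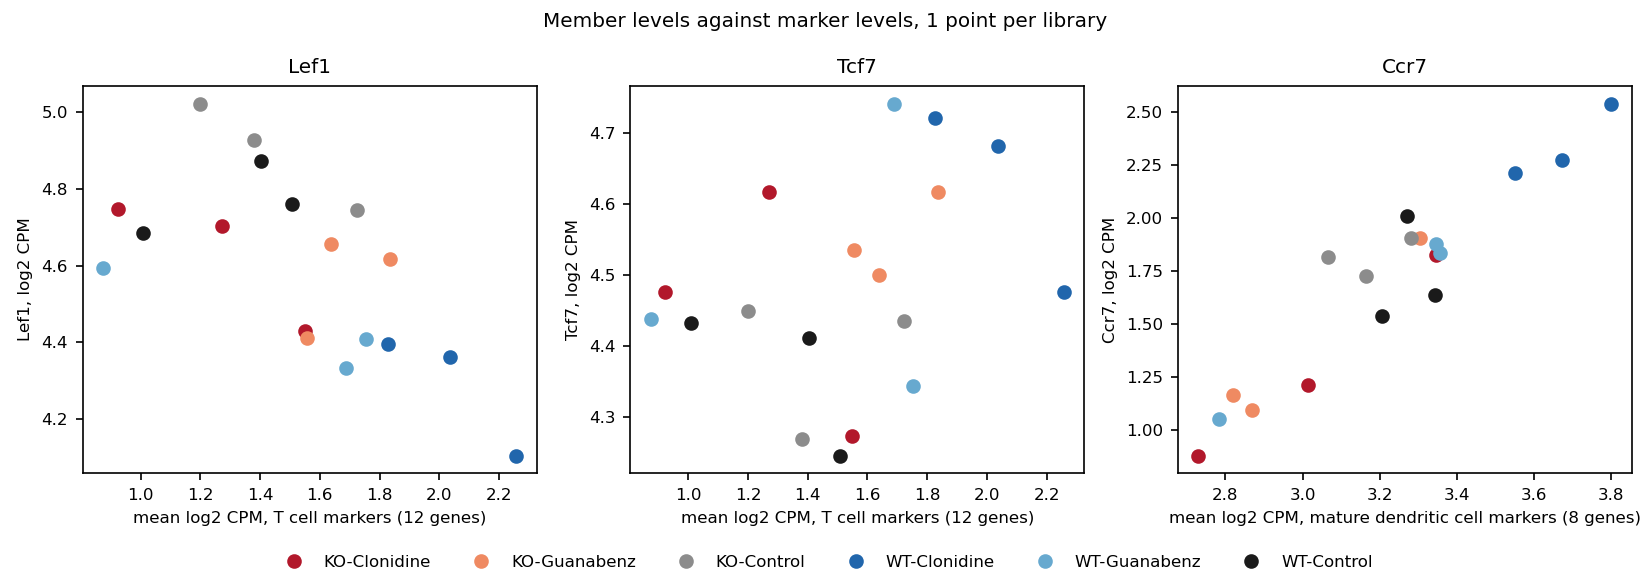
Log2 CPM of Lef1 and Tcf7 against the mean log2 CPM of 12 T cell markers, and of Ccr7 against that of 8 mature dendritic cell markers, 1 point per library coloured by group. Lef1 runs down with the T cell markers (r = -0.65), Tcf7 shows a loose spread (r = 0.31), and Ccr7 lies near a rising line (r = 0.95) with the 3 WT-Clonidine libraries at its top.

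Across the 6 groups the means lay closest together, relative to level, for S1pr1 and farthest apart for Ccr7. Group means ran from 20.6 to 24.8 CPM for Tcf7, 19.6 to 29.9 for Lef1, 2.55 to 5.08 for Ccr7, 3.48 to 5.43 for Il7r, 28.2 to 31.4 for S1pr1, 36.2 to 42.9 for Klf2 and 3.29 to 4.84 for Satb1. When the groups were ordered by mean for each gene, the ranges of neighbouring groups overlapped in 34 of 35 pairs. The exception was Ccr7, whose 3 WT-Clonidine libraries all lay above those of KO-Control, the group next in order. Lef1 was ordered KO-Control, WT-Control, KO-Clonidine, KO-Guanabenz, WT-Guanabenz and WT-Clonidine, high to low, so that both control groups stood above every treated group.

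**Figure D3:**
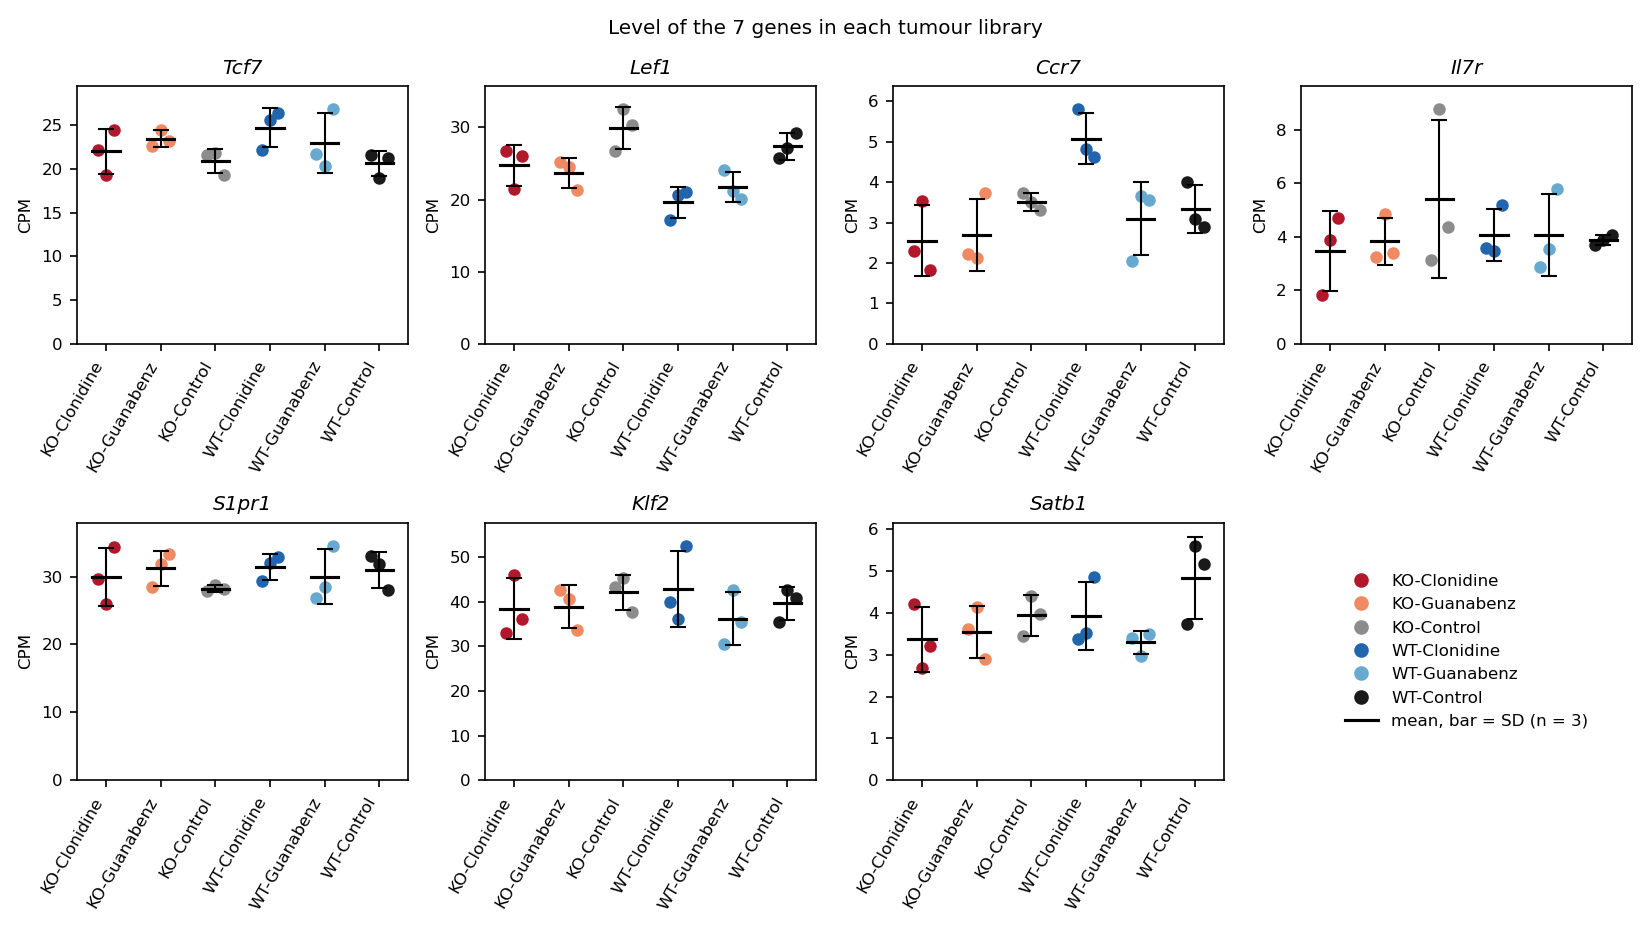
CPM of the 7 genes in each library, by group; points are libraries, the horizontal line is the mean and the bar the SD of 3. Lef1 is highest in the 2 control groups (29.9 and 27.4 CPM on average), Ccr7 is highest in WT-Clonidine (5.08 CPM), and S1pr1 lies between 25.9 and 34.5 CPM in every library.

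In hosts that have the receptor, WT-Clonidine tumours were compared with WT-Control tumours. Lef1 was at 17.2, 20.6 and 21.0 CPM in WT-Clonidine and at 25.7, 27.1 and 29.3 CPM in WT-Control. Every WT-Clonidine library lay below every WT-Control library, with means of 19.6 ± 2.1 and 27.4 ± 1.79 CPM (SD, n = 3 each). The log2 difference was -0.48 (SE 0.11, adjusted p = 0.105 in edgeR). DESeq2 gave -0.49 with adjusted p = 0.00477 and limma-voom -0.49 with adjusted p = 0.011, so this difference passed with both of these and not with edgeR. Tcf7, its paralogue, differed in the other direction, with 22.2, 25.6 and 26.4 CPM in WT-Clonidine against 21.6, 19.0 and 21.3 CPM in WT-Control. Its log2 difference was 0.26 (SE 0.11, adjusted p = 0.304), and the groups did not overlap.

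Ccr7 stood at 5.80, 4.82 and 4.62 CPM in WT-Clonidine, against 4.01, 3.09 and 2.89 CPM in WT-Control. The groups did not overlap and the log2 difference was 0.61 (SE 0.26, adjusted p = 0.329; limma-voom 0.66, adjusted p = 0.0351). Beside it, Ccl22 was at 8.77, 7.11 and 8.16 CPM in WT-Clonidine and 4.30, 4.75 and 3.00 CPM in WT-Control (log2 difference 1.00, SE 0.34, adjusted p = 0.228). Ccl17, another chemokine of mature dendritic cells, differed by 1.64 (SE 0.56, adjusted p = 0.232). Of the 8 mature dendritic cell markers, none was at 0 CPM in any library, 6 had a log2 difference above 0, and 0 were called. Relb and Fscn1 lay below 0 (-0.17 and -0.08), and Cacnb3 and Cd40 were at 0.06 and 0.05. The mean log2 CPM of the 8 markers ran from 3.55 to 3.8 in WT-Clonidine and from 3.21 to 3.34 in WT-Control, so the groups did not overlap. Their summed level, 508 to 565 CPM in WT-Clonidine and 516 to 586 CPM in WT-Control, did overlap, and Fscn1, the gene of an actin-bundling protein, made up 76.0 to 81.5% of that sum over the 18 libraries. The 12 T cell markers, none at 0, summed to 49.7 to 66.5 CPM in WT-Clonidine and 29.2 to 40.5 CPM in WT-Control, with 12 of 12 above 0 on the log2 scale and 0 called. The 12 endothelial markers, none at 0, summed to 298 to 348 CPM in WT-Clonidine and 253 to 292 CPM in WT-Control, and 11 of 12 were above 0 on the log2 scale (median 0.25, 0 called). Of 7 markers of lymph node stroma 6 were in the table, 3 of them at 0 in some library, and their sum was 2.60 to 3.09 CPM in WT-Clonidine and 0.718 to 1.49 CPM in WT-Control. Cxcl13, a chemokine gene that made up most of that sum in WT-Clonidine, averaged 2.14 ± 0.115 CPM in WT-Clonidine and 0.556 ± 0.363 CPM in WT-Control (log2 difference 2.00, SE 0.63, adjusted p = 0.203). By sum the T cell, endothelial and lymph node stroma lists were thus higher in WT-Clonidine, and the mature dendritic cell list only by mean log2 CPM. Sums of the B cell markers overlapped, at 13.6 to 16.5 CPM in WT-Clonidine and 11.7 to 15.1 CPM in WT-Control. So did those of innate lymphoid markers (496 to 558 against 460 to 559 CPM) and epithelial markers (7.6 to 8.3 against 5.46 to 7.71 CPM). The part of these cell types in the Ccr7 and Lef1 differences was not tested.

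Of the 7 genes 0 were called by edgeR in this comparison, where 0% of all 16125 genes were. DESeq2 called 1 and limma-voom 2 of the 7, against 2.55% and 4.79% of the genes each tested. At an unadjusted p under 0.05 there were 3 of 7 (Tcf7, Lef1 and Ccr7), against 12.9% of all genes. The same 3 were those whose groups did not overlap, which held for 20.9% of all genes. The median log2 difference was 0.06 over the 7 genes and 0.00 over all genes. S1pr1, Klf2 and Il7r differed by 0.02, 0.11 and 0.06, with 95% intervals of -0.20 to 0.25, -0.21 to 0.43 and -0.70 to 0.83, and Satb1 by -0.31 (SE 0.20, adjusted p = 0.54).

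In hosts that lack the receptor, KO-Clonidine tumours were compared with KO-Control tumours. Lef1 was at 26.8, 21.5 and 26.0 CPM in KO-Clonidine and at 26.8, 32.5 and 30.4 CPM in KO-Control, so the groups met at their edge. Its log2 difference was -0.27 (SE 0.11, adjusted p = 0.893). Ccr7 was at 2.30, 3.53 and 1.83 CPM in KO-Clonidine and at 3.74, 3.51 and 3.30 CPM in KO-Control, a log2 difference of -0.46 (SE 0.27, adjusted p = 0.952). Il7r, at 3.48 ± 1.48 CPM in KO-Clonidine and 5.43 ± 2.96 CPM in KO-Control, differed by -0.63 (SE 0.36, adjusted p = 0.952), and KO-Control 2 alone held 8.77 CPM. Without that library the Il7r difference was -0.10. S1pr1 and Klf2 differed by 0.09 (95% interval -0.14 to 0.31) and -0.13 (-0.45 to 0.19).

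Here 0 of the 7 were called by edgeR, DESeq2 or limma-voom, where edgeR and limma-voom each called 0.0186% and DESeq2 0.180% of the genes tested. At an unadjusted p under 0.05 there was 1 of 7, Lef1, against 5.52% of all genes, and 0 of 7 had groups apart against 8.83%. The median over the 7 genes was -0.23 and over all genes 0.00. The 12 T cell markers summed to 27.5 to 41.5 CPM in KO-Clonidine and 33.2 to 47.1 CPM in KO-Control.

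The difference of these effects, WT minus KO, asks whether the response needed the receptor. For Ccr7 it was 1.07 (SE 0.37, adjusted p = 0.447), the WT effect being positive and the KO effect negative. For Lef1, with a negative effect in both genotypes, it was -0.21 (SE 0.15, adjusted p = 0.711), and for Tcf7 0.19 (SE 0.15, adjusted p = 0.745). edgeR called 0 of 7 where it called 0% of all genes, and DESeq2 and limma-voom called 0 of 7 against 0.230% and 0.0124%. Only Ccr7 had an unadjusted p under 0.05, 1 of 7 against 8.94% of all genes.

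For guanabenz, WT-Guanabenz tumours were compared with WT-Control tumours. Lef1 was at 24.1, 21.2 and 20.1 CPM in WT-Guanabenz, each below the 25.7, 27.1 and 29.3 CPM of WT-Control, a log2 difference of -0.33 (SE 0.11, adjusted p = 0.271). Satb1 was at 3.40, 2.98 and 3.50 CPM in WT-Guanabenz, each below the 3.73, 5.60 and 5.18 CPM of WT-Control. Its log2 difference was -0.55 (SE 0.20, adjusted p = 0.319). Ccr7 differed by -0.09 (SE 0.26) and Tcf7 by 0.16 (SE 0.11). edgeR, DESeq2 and limma-voom called 0 of the 7, with 0% of all genes called by edgeR, 1.38% by DESeq2 and 0.0372% by limma-voom. Lef1 and Satb1 were the 2 with an unadjusted p under 0.05, against 11.4% of all genes, and the 2 with groups apart, against 14.6%. The median was -0.09 over the 7 genes and 0.01 over all genes. The T cell markers summed to 25 to 47.6 CPM in WT-Guanabenz and 29.2 to 40.5 CPM in WT-Control.

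In KO hosts, KO-Guanabenz was set against KO-Control, with the treatment taken from the titles. Lef1 was at 25.2, 24.5 and 21.3 CPM in KO-Guanabenz, below the 26.8, 32.5 and 30.4 CPM of KO-Control, a log2 difference of -0.34 (SE 0.11, adjusted p = 0.174). Tcf7 was at 22.6, 24.5 and 23.2 CPM in KO-Guanabenz, above the 21.6, 21.8 and 19.3 CPM of KO-Control, with a log2 difference of 0.17 (SE 0.11, adjusted p = 0.495). edgeR, DESeq2 and limma-voom called 0 of the 7, where edgeR called 0.0124% of all genes, DESeq2 3.69% and limma-voom 2.13%. There was 1 of 7, Lef1, with an unadjusted p under 0.05 against 15.1% of all genes, and 2 of 7 had groups apart against 19.6%. The median was -0.15 over the 7 genes and -0.01 over all genes. The T cell markers summed to 42.7 to 54.9 CPM in KO-Guanabenz and 33.2 to 47.1 CPM in KO-Control. In the difference of the guanabenz effects, WT minus KO, Lef1 was at 0.01 (SE 0.15) and Tcf7 at -0.01 (SE 0.15). There 0 of 7 were called by any of the 3 tools or had an unadjusted p under 0.05, where edgeR called 0.00620% of all genes and 5.71% had such a p, while DESeq2 called 0.0807% and limma-voom 0.0124%.

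Lef1 had a negative log2 difference in each of the 4 treated groups against its own control: -0.48, -0.33, -0.27 and -0.34. The WT pair of these comparisons shares the WT-Control libraries and the KO pair shares KO-Control, so the 4 values are not independent. Clonidine and guanabenz in WT hosts were also compared directly, although their doses are not given. Ccr7 was higher in each WT-Clonidine library than in each WT-Guanabenz library (5.80, 4.82 and 4.62 CPM against 2.06, 3.67 and 3.56 CPM). Its log2 difference was 0.71 (SE 0.26, adjusted p = 0.957). Lef1 differed by -0.15 (SE 0.11) and Tcf7 by 0.11 (SE 0.11). The 3 tools called 0 of 7, with 0% of all genes called by edgeR, 0.0248% by DESeq2 and 0.00620% by limma-voom. Ccr7 was the 1 of 7 with an unadjusted p under 0.05, against 5.05% of all genes, and the 1 with groups apart, against 9.07%.

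**Figure D4:**
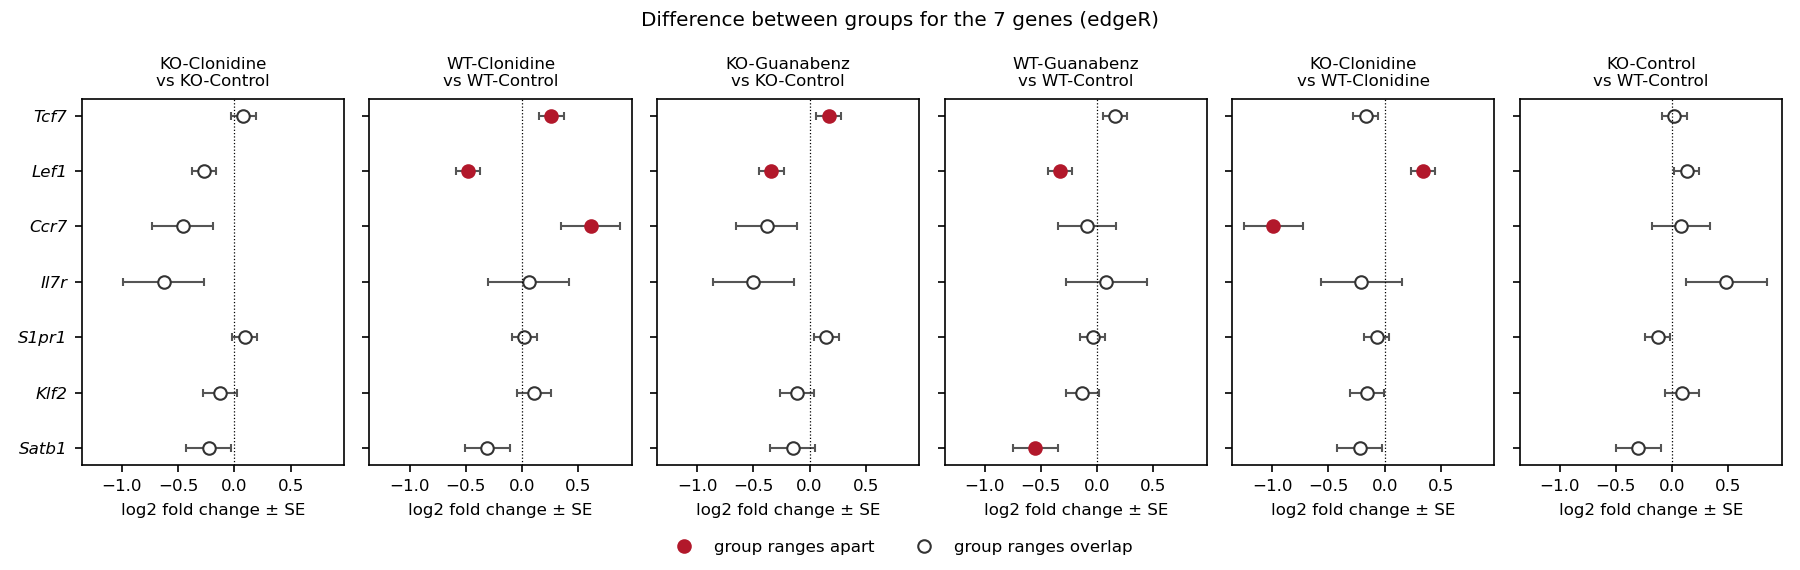
Log2 fold change (horizontal axis, bar = SE) of the 7 genes in 6 comparisons by edgeR; filled red points mark genes whose libraries do not overlap between the groups. Lef1 lies left of 0 in the 4 comparisons of a drug with its control and right of 0 in KO-Clonidine against WT-Clonidine (0.34), where Ccr7 is at -0.99.

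The host genotype was compared first without a drug. In KO-Control against WT-Control no member's groups were apart, 0 of 7 against 8.33% of all genes. Il7r had the largest difference, 0.48 (SE 0.36, adjusted p = 1), with 5.43 ± 2.96 CPM in KO-Control and 3.88 ± 0.186 CPM in WT-Control. Without KO-Control 2 it was -0.05. Lef1 was at 29.9 ± 2.87 CPM in KO-Control and 27.4 ± 1.79 CPM in WT-Control (0.13, SE 0.11). edgeR, DESeq2 and limma-voom called 0 of the 7, with 0.00620% of all genes called by edgeR and by limma-voom and 0.106% by DESeq2, and 0 of 7 had an unadjusted p under 0.05 against 3.68%.

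The genotypes were then compared under clonidine. Ccr7 was at 2.30, 3.53 and 1.83 CPM in KO-Clonidine and at 5.80, 4.82 and 4.62 CPM in WT-Clonidine. Every KO library lay below every WT library, with means of 2.55 ± 0.88 and 5.08 ± 0.632 CPM (SD, n = 3 each) and a log2 difference of -0.99 (SE 0.26, 0.503-fold, adjusted p = 0.0566 in edgeR). DESeq2 gave -0.99 with adjusted p = 0.00536 and limma-voom -1.12 with adjusted p = 0.00888. Lef1 was at 26.8, 21.5 and 26.0 CPM in KO-Clonidine, above the 17.2, 20.6 and 21.0 CPM of WT-Clonidine. Its log2 difference was 0.34 (SE 0.11, adjusted p = 0.094; DESeq2 0.0391, limma-voom 0.0295). Tcf7, Il7r, S1pr1, Klf2 and Satb1 differed by -0.17, -0.21, -0.07, -0.16 and -0.22, with groups that overlapped.

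edgeR called 0 of the 7 in this comparison, where it called 2.50% of all genes, and DESeq2 and limma-voom each called the 2 genes above, against 8.43% and 7.85% of the genes each tested. At an unadjusted p under 0.05 there were 2 of 7 against 19.6% of all genes, and 2 of 7 had groups apart against 27.0%. Beside Ccr7, Ccl22 was at 3.40 ± 1.47 CPM in KO-Clonidine and 8.01 ± 0.841 CPM in WT-Clonidine (log2 difference -1.23, SE 0.34, adjusted p = 0.0637). The 12 T cell markers summed to 27.5 to 41.5 CPM in KO-Clonidine and 49.7 to 66.5 CPM in WT-Clonidine, and of these Cd5 and Cd6 fell by 1.36 (SE 0.24, adjusted p = 0.0197) and by 1.23 (SE 0.28, adjusted p = 0.0335). These calls held in 11 and 8 of 17 alternatives. The mean log2 CPM of the 8 mature dendritic cell markers ran from 2.73 to 3.35 in KO-Clonidine and from 3.55 to 3.8 in WT-Clonidine, without overlap, and 2 of 8 had a log2 difference above 0 (median -0.53, 0 called). Their sum, most of it Fscn1, was 486 to 585 CPM in KO-Clonidine and 508 to 565 CPM in WT-Clonidine. The 12 endothelial markers summed to 258 to 286 CPM in KO-Clonidine and 298 to 348 CPM in WT-Clonidine, with 1 of 12 above 0 (median log2 difference -0.29). Of these Ptprb, an endothelial receptor phosphatase gene, fell by 0.53 (SE 0.10, adjusted p = 0.0217), a call that held in 10 of 17 alternatives. The lymph node stroma markers summed to 0.767 to 1.15 CPM in KO-Clonidine and 2.60 to 3.09 CPM in WT-Clonidine, with Cxcl13 at a log2 difference of -2.11 (SE 0.64, adjusted p = 0.0836). The part of these 4 cell types in the Ccr7 and Lef1 differences was not tested.

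Y-linked transcripts were seen in 0 of 3 KO-Clonidine and 2 of 3 WT-Clonidine libraries; with a term for them Ccr7 was at -1.13 (adjusted p = 0.0667) and Lef1 at 0.37 (adjusted p = 0.119). With single libraries left out, the Ccr7 difference ran from -1.31, without KO-Clonidine 2, to -0.79 (edgeR adjusted p = 0.0342 to 0.209). That of Lef1 ran from 0.25 to 0.43 (adjusted p = 0.0551 to 0.272). Over the 17 alternatives Ccr7 was called in 3 and Lef1 in 2.

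Averaged over the 3 treatments, KO against WT, Lef1 differed by 0.20 (SE 0.06, adjusted p = 0.131) and Ccr7 by -0.37 (SE 0.15, adjusted p = 0.222). These were the 2 of 7 with an unadjusted p under 0.05, against 17.4% of all genes. edgeR, DESeq2 and limma-voom called 0 of the 7, against 0.416%, 4.54% and 2.24% of the genes each tested, in that order. S1pr1, Klf2 and Tcf7 were at -0.05, 0.01 and -0.04, with 95% intervals for S1pr1 of -0.18 to 0.08 and for Klf2 of -0.18 to 0.20.

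Other genes of these pathways, and effector genes as a contrast to them, were taken from 5 lists, and 73 of their 74 genes were tested. The gene not tested, Ccl21a, which encodes a CCR7 ligand, was at 0 in 15 libraries and at most at 0.0608 CPM, and Ccl19, the gene of the other ligand, reached at most 0.323 CPM. edgeR called 1 of the 73 in 1 comparison and 0 in the other 9. This was Tle4, which encodes a corepressor that binds TCF and LEF factors, and it fell by 0.35 (SE 0.08, adjusted p = 0.0429) in KO-Clonidine against WT-Clonidine. That call held in 6 of 17 alternatives, DESeq2 and limma-voom among them, and was lost whichever of the 6 libraries was left out (adjusted p over the alternatives 0.00375 to 0.16). DESeq2 and limma-voom each called 8 of these genes in that comparison, beside their 8.43% and 7.85% of the genes each tested. They called 3 and 5 in WT-Clonidine against WT-Control (2.55% and 4.79% of the genes tested), 2 and 2 in KO-Guanabenz against KO-Control (3.69% and 2.13%), 2 and 1 in the mean of KO against WT (4.54% and 2.24%), and 0 in the other 6 comparisons.

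In WT-Clonidine against WT-Control, 19 of 20 other naive and memory genes were above 0, with a median of 0.22 and 0 called. An unadjusted p under 0.05 was found for 7 of the 20, against 12.9% of all genes. The smallest p in that list belonged to Ikzf1, a lymphoid transcription factor (0.34, SE 0.10, adjusted p = 0.168), and Sidt1 (0.81, SE 0.24, adjusted p = 0.184). Among 18 effector and exhaustion genes 14 were above 0 (median 0.19, 0 called), led by Tox (1.24, SE 0.31, adjusted p = 0.127) and the inhibitory receptor gene Pdcd1 (0.69, SE 0.21, adjusted p = 0.184). An unadjusted p under 0.05 was found for 7 of these 18 genes and for 10 of the 12 T cell markers. Such p-values were thus not particular to the naive and memory genes. Of the 12 TCF and LEF partners and targets 9 were above 0 (median 0.15, 0 called), with Notum, a secreted Wnt inhibitor, at 1.36 (SE 0.45, adjusted p = 0.215) but at no more than 0.171 CPM in any WT-Clonidine library, and Tcf7l2, another TCF gene, at 0.31 (SE 0.11, adjusted p = 0.253). The 11 genes around the IL-7 receptor had a median of 0.02 and the 12 tested genes of sphingosine-1-phosphate and CCR7 ligands 0.07, with 0 called in either. In those lists the smallest p belonged to Cish, a STAT5-induced inhibitor (0.54, SE 0.20, adjusted p = 0.272), and S1pr3 (0.29, SE 0.20, adjusted p = 0.56).

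In KO-Clonidine against WT-Clonidine 3 of the 20 other naive and memory genes were above 0 (median -0.29, 0 called). An unadjusted p under 0.05 was found for 8 of the 20, against 19.6% of all genes. The smallest p there belonged to Klf3, a paralogue of Klf2 (-0.26, SE 0.07, adjusted p = 0.0687), and Ikzf1 (-0.33, SE 0.10, adjusted p = 0.078). The effector list had a median of -0.23 (4 of 18 above 0, 0 called), with Pdcd1 at -0.78 (SE 0.21, adjusted p = 0.0557). Here too an unadjusted p under 0.05 was found for 7 of the 18 effector genes and for 8 of the 12 T cell markers. The median over all genes in that comparison was -0.01.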

How the data were processed

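Gene-level estimated counts were used as deposited, all of them whole numbers. The submitters' processing notes name Trim Galore 0.6.5, kallisto 0.46.0 and GRCm38. Neither the summing of transcripts to genes nor the use of strand is stated in the labels. The annotated genes Tcf7 (chromosome 11, 52246527 to 52283383, GRCm38) and Skp1 overlap by 332 bases; Skp1 lay at 164 to 189 CPM and had r = -0.38 with Tcf7 (rho = -0.28) over 18 libraries, so Tcf7 carries this uncertainty. Of 21015 identifiers 20994 matched RefSeq symbols; the remaining 21 took up no more than 0.0216% of any library's counts.

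Genes were kept with filterByExpr, scaled by TMM and modelled together (18 libraries, 6 group means) with edgeR 4.0.16 in R 4.3.3. Its quasi-likelihood tests, two-sided, had p-values adjusted (Benjamini-Hochberg) over all genes in each of 10 comparisons, and adjusted p under 0.05 was a call. Intervals are 95%. Levels per kb use the mean length of GENCODE transcripts. Log2 levels for correlations have a prior count of 2. Permutation tests were two-sided with 1e+05 draws, adjusted over 28 relations. They shuffled all 18 libraries without regard to group, so their p-values do not separate differences between groups from relations within them. The most similar genes are the 3 with the highest r among 12677 with mean log2 CPM of at least 0. All 7 members are described. From each other list the genes named are taken from the 2 with the smallest p in a comparison, or were called. Outside this rule, Cd3e and Epcam were named for their level, Fscn1 and Cacnb3 as further mature dendritic cell markers, and Ccl21a as not tested. The 3 tools were tested on simulated counts for clonidine in WT. These were drawn once from a negative binomial model with the spread that edgeR had estimated for each gene. False calls exceeded the threshold's share most with DESeq2, less with limma-voom and not with edgeR. Since the counts followed edgeR's own estimates, this order cannot tell which tool is right for the real libraries. Shares of genes called by DESeq2 are of genes with an adjusted p. Same-numbered replicates did not deviate together (45 pairs, r from -0.33 to 0.25), so the numbers were not used as pairs.

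Members and lists were chosen with earlier results of these data known. Libraries are not tied to animals in the labels, so p-values measure the spread between libraries, which may be technical. Alternatives were DESeq2 1.42.0, limma-voom (limma 3.58.1), other scalings and filters, a replicate block, fits of the compared groups only, leaving out each library, and KO-Guanabenz left out or read as KO-Control. Chosen after the data were seen was a covariate for Y-linked transcripts (Ddx3y, Eif2s3y and Uty).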

Additional observations from a re-analysis of the deposited data

How the results depend on the processing

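Among the recomputed log2 differences of the 7 genes, 1231 kept their direction and their side of the threshold, 84 turned in sign and 8 passed it where edgeR had not. edgeR called 0 of the 7 in every comparison. DESeq2 called 1 in WT-Clonidine against WT-Control and 2 in KO-Clonidine against WT-Clonidine, and limma-voom called 2 in each. Leaving out single libraries gave 0 to 1 in that last comparison and 0 in the others. The cause was not tested. Over all genes the tools also differed: in KO-Clonidine against WT-Clonidine edgeR called 403, DESeq2 1148, limma-voom 1266, edgeR on these groups alone 4, and 34 with KO-Guanabenz read as KO-Control; leaving out single libraries gave 1 to 312. In WT-Clonidine against WT-Control the counts were 0, 355 and 773, and in the mean of KO against WT 67, 618 and 362. With the replicate number as a block, 0 of the 7 were called, Ccr7 in KO-Clonidine against WT-Clonidine had adjusted p = 0.0745 and Lef1 in WT-Clonidine against WT-Control 0.125.

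Apart from Il7r, the differences that changed sign lay between -0.16 and 0.13. With limma-voom, Il7r stood at -0.11 and -0.08 for clonidine and guanabenz in WT, Ccr7 at 0.01 for guanabenz in WT, Lef1 at -0.02 and Klf2 at 0.02 for the guanabenz difference WT minus KO, and Tcf7 at -0.02 for KO against WT controls. With total-count scaling, S1pr1 and Satb1 were at 0.02 and 0.01 for the clonidine difference, Tcf7 and Klf2 at 0.03 and 0.02 for the guanabenz difference, and Klf2 at -0.03 for the mean of KO against WT. With the stricter filter the last of these and Tcf7 in the guanabenz difference were at 0. With the replicate block Il7r was at 0.03 for clonidine against guanabenz. Without KO-Guanabenz, Klf2 was at -0.03 for the mean of KO against WT. With KO-Guanabenz read as KO-Control it was at -0.06, Tcf7 for clonidine in KO at -0.01, S1pr1 for the clonidine difference at 0.01, and Lef1 and Ccr7 for KO against WT controls at -0.03 and -0.10. With the Y-linked term, added after the data were seen, Il7r and S1pr1 for clonidine in WT were at -0.02 each, S1pr1 for clonidine in KO at -0.01, Il7r for guanabenz in WT at -0.02 and Tcf7 for KO against WT controls at 0.

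Leaving out single libraries gave these ranges where a sign turned. Clonidine in WT gave -0.14 to 0.17 for Il7r, -0.06 to 0.22 for Klf2 and -0.05 to 0.07 for S1pr1. Clonidine in KO gave -0.03 to 0.18 for S1pr1 and -0.01 to 0.16 for Tcf7, and the clonidine difference -0.16 to 0.05 for S1pr1 and -0.26 to 0.10 for Satb1. Guanabenz in WT gave -0.23 to 0.12 for Ccr7, -0.27 to 0.27 for Il7r and -0.16 to 0.03 for S1pr1, and guanabenz in KO -0.77 to 0.03 for Il7r. The guanabenz difference gave -0.14 to 0.09 for Klf2, -0.07 to 0.08 for Lef1 and -0.14 to 0.07 for Tcf7. KO against WT gave, under clonidine, -0.49 to 0.09 for Il7r, -0.31 to 0.01 for Klf2 and -0.18 to 0.03 for S1pr1. In controls it gave -0.02 to 0.23 for Ccr7, -0.05 to 0.75 for Il7r and -0.04 to 0.08 for Tcf7, and in the mean -0.12 to 0.18 for Il7r, -0.04 to 0.06 for Klf2 and -0.07 to 0 for Tcf7. Clonidine against guanabenz gave -0.22 to 0.34 for Il7r and -0.01 to 0.18 for S1pr1. Guanabenz in KO and its difference have no value with KO-Guanabenz left out or read as KO-Control, nor has the mean of KO against WT with the compared groups alone. By Spearman, the most similar genes shared 0 to 2 of 3 with the Pearson list. Depth limits none of these values as much as the spread between 3 libraries a group.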
